A study of Homo sapiens with 3 samples.

Results

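BMP2, BMP4, BMP7, BMPR1B, INHBA, FST, GREM1, ID1, ID2 and ID3 are genes of bone morphogenetic protein (BMP) and activin signaling, and they were followed here in a lung cancer cell line and in a pair of drug-resistant lines made from it. They were chosen by symbol, 10 genes of the 43316 named on the array, and every probe the array carries for them was read. Their 14 probes were matched by RefSeq accession, and all 14 carried the same symbol there. Expression of mRNA was measured on Agilent single-colour arrays, in which labeled RNA binds gene-specific probes and a spot's brightness is read as its intensity. The lines were H1975, OR1 and OR2, with 1 array each. H1975 is a human non-small cell lung cancer line harboring mutated EGFR and sensitive to osimertinib, an inhibitor of mutant EGFR. OR1 and OR2 came from separate selections of H1975 in osimertinib, raised stepwise to 2 μmol/L over 4 months, so both share its EGFR background. All 3 lines were grown in the same serum-containing medium, and whether osimertinib was present when RNA was taken is not given in the sources used here.

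BMPs and activins are secreted dimers of the TGF-β superfamily. They bind pairs of type I and type II serine/threonine kinase receptors, which phosphorylate SMAD1, SMAD5 and SMAD9 in the BMP branch and SMAD2 and SMAD3 in the activin branch. ID1, ID2 and ID3 are classic targets of the BMP branch, and their proteins bind basic helix-loop-helix transcription factors and keep them off DNA. INHBA encodes the subunit of activin A, BMPR1B is a type I BMP receptor, and FST (follistatin) and GREM1 (gremlin) are secreted antagonists that trap activins and BMPs. In carcinoma cells the superfamily is known for its part in epithelial differentiation and its loss.

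The ligand genes were higher in both resistant lines, and the ID genes were not past the ratio used here in either. Against H1975, 4 of the 10 genes reached a ratio of 2 in OR1 and 4 did so in OR2, and they were BMP2, BMP4, BMP7 and INHBA in both lines. Of the 22417 genes that were well above background (as the scanner software calls it) on at least 1 array, 8.95% passed this ratio in OR1, 7.47% in OR2 and 5.09% in both. Of the 10 genes, 7 were among these 22417. BMP4, BMP7 and INHBA were well above background in OR1 and OR2 alone, so they could only differ upward. Of the 4 members well above background on all 3 arrays, 1 (BMP2) reached the ratio in both lines, as did 887 of 18589 genes. None of the 10 had a ratio of 0.5 or less in OR1 or OR2, where 9.34% and 8.41% of all genes did, and 6.32% did in both lines. The ratios of 2 and 0.5 are those of the study's methods. Both ratios share the H1975 array, so their likeness is no second measurement. Each line had a single array, so there was no replicate and no test, and the number of arrays limits the precision.

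Depth on an array is signal over background, and it was alike on the 3 arrays. Between 45.6% and 45.9% of the probes were well above background, and no spot was saturated. Each array's intensities were scaled on its 75th percentile, which lay between 138 and 162. Where a gene was well above background on a single side, the other side was set to the lowest intensity well above background on that array, between 11.4 and 12.6, or to its own if higher, and the ratio is written "at least" or "at most". The error beside a log2 ratio is a technical SD from the scanner software's error estimate, with a median of 0.20 over all genes. It covers 1 labeled RNA and not the variation between cultures.

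INHBA had the highest ratios of the 10 genes in OR1 and the ID genes were not past the ratio, so the sequence before the start of each is given here. It is the 250 bases before the start on GRCh38.p14, 5′ to 3′ on the gene's strand, from RefSeq. INHBA lies on the minus strand at chr7:41703091-41703340, ID1 on the plus strand at chr20:31605039-31605288, ID2 on the plus strand at chr2:8681806-8682055 and ID3 on the minus strand at chr1:23559502-23559751. Capitals mark matches to TATAAA, the TATA box, and to CAGAC, the SMAD box, searched on both strands.
INHBA: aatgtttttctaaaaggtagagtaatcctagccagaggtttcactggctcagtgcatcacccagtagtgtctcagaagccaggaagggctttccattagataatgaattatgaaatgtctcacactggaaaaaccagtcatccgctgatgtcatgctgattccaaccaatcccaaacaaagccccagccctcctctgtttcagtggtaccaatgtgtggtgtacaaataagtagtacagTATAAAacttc
ID1: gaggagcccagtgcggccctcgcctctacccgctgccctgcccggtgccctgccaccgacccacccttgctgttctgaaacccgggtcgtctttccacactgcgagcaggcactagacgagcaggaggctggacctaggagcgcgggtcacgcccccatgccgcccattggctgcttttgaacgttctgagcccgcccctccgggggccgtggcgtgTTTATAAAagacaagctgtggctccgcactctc
ID2: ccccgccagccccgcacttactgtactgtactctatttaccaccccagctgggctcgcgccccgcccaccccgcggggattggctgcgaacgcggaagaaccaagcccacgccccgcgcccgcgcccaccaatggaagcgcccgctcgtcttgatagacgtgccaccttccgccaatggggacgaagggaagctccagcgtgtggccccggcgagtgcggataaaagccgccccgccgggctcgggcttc
ID3: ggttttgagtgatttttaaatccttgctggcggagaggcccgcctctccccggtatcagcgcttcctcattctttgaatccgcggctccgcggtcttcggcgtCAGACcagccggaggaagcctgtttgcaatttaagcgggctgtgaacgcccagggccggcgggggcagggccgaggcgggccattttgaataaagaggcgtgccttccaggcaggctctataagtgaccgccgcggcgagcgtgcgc
INHBA held TATAAA from base -11, counted back from the start. ID1 held it on both strands in overlapping matches from bases -33 and -31. TATAAA or its complement TTTATA was in 10.72% of 35116 promoters of this length. ID3 held CAGAC from base -147, and CAGAC or its complement GTCTG was in 38.0% of the promoters. No match was found in ID2. GGCGCC, a GC-rich site bound by SMAD1 and SMAD5 and its own complement, was in 16.4% of all promoters and in none of these 4. Elsewhere in the set, it was in a window of BMP4 from base -232 and in a window of GREM1 from bases -83 and -52. The other windows of BMP4 and GREM1 did not hold it. No promoter of BMP2 or BMP7 was in the promoter set used, so those genes were not searched. TGACGTCA, the cyclic AMP response element, was in 1.65% and in none of the 4. These windows differed in base composition, with a GC content of 42.8% for INHBA, 66% for ID1, 69.2% for ID2 and 62% for ID3. A match describes letters and is not a site shown to be used.

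INHBA was read by 1 probe, spotted 10 times on each array, at chr7:41729246-41729305 on hg19, the build of the files. The probe targets NM_002192, and its first 30 of 60 bases are given to identify it.
INHBA probe: aaacatcatcaaaaaggacattcagaacat
In H1975 the mean intensity was 13.8 (geometric, 10 spots), with spots between 8.57 and 18.0 and a median of 15.8. Only 5 of those 10 spots were well above background, so INHBA was taken as not well above background in H1975. In OR1 the mean was 662, with all 10 spots between 644.5 and 701 and a median of 658. In OR2 it was 157, with 8 spots kept between 149 and 166 and a median of 157. The spots of the 3 arrays did not overlap. The SD between spots on the log2 scale was 0.41 for H1975, 0.04 for OR1 and 0.05 for OR2, so the spread lay in the dim array. After scaling, INHBA was at least 54.6-fold higher in OR1 and at least 11.1-fold higher in OR2 than in H1975. With normexp background correction these bounds were at least 10.8-fold and at least 2.88-fold. Between the resistant lines, INHBA was 4.93-fold higher in OR1 than in OR2 (log2 ratio of OR2 to OR1 -2.30 ± 0.21, technical SD).

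**Figure D1:**
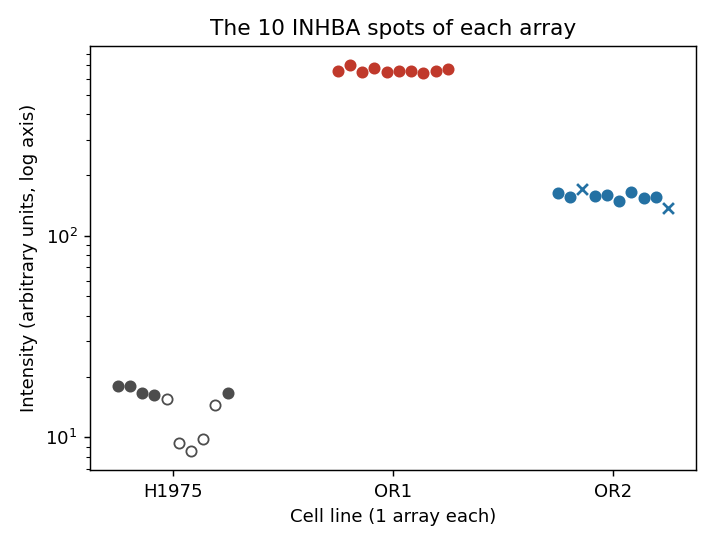
Intensity of each of the 10 INHBA spots (log axis, arbitrary units) on the array of H1975, OR1 and OR2, in file order. Filled points are well above background, open points are not, and crosses are the 2 outlier spots of OR2 that were left out. The H1975 spots lie between 8.57 and 18.0, the OR2 spots that were kept between 149 and 166 and the OR1 spots between 644.5 and 701.

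BMP7, a ligand known from kidney and epithelial tissue, was read by 3 probes to NM_001719 on the minus strand of chromosome 20. Their first 30 bases are shown because the probes differed in brightness and in the calls they gave, and each name gives the probe's start on hg19.
BMP7 55745555: gcgaaaggaaaattgacccggaagttcctg
BMP7 55743791: actgtgtctccatcttgactcagacagttc
BMP7 55803380: catcgagagttccggtttgatctttccaag
The brightest probe, at chr20:55745555-55745614, gave 4.36 in H1975, against 141 in OR1 and 54.5 in OR2. It was above background in OR1 and OR2 only, and BMP7 by this probe was at least 12.8-fold higher in OR1 and at least 4.22-fold higher in OR2. The probe at chr20:55743791-55743844 had 2.84, 15.6 and 15.2 in the same order, which gave at least 1.42-fold in OR1 and at least 1.17-fold in OR2, neither past the ratio. The probe at chr20:55803380-55803439 had 3.03, 3.66 and 3.06 and stayed below the background limit on all arrays. The call of BMP7 therefore rested on 1 of 3 probes. The ratios of the probe at chr20:55743791-55743844 are lower bounds and allow for larger values. By the brightest probe OR2 was lower than OR1, with a log2 ratio of -1.60 ± 0.23 (technical SD). The probe at chr20:55743791-55743844 gave -0.27 ± 0.42 for OR2 to OR1, within its technical SD of 0. INHBA and BMP7 were the members lower in OR2 than in OR1 by a ratio of at least 2, a difference seen in 2.76% of all genes, and no member was higher in OR2 by that ratio, as 2.37% of all genes were. The ratio of OR2 to OR1 for BMP7 was 0.525 both with spike-in scaling and with normexp background correction, which ends its call, and with spike-in scaling BMP4 was 2.39-fold higher in OR2.

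BMP2 and BMP4 are closely related ligands and were each read by 1 probe. BMP2 (NM_001200, chr20:6760810-6760869 on hg19) was well above background in all 3 lines, with intensities of 140 for H1975, 398 for OR1 and 503 for OR2. That made a ratio of 3.23 for OR1 (log2 ratio 1.69 ± 0.21, technical SD) and of 3.49 for OR2 (1.80 ± 0.21). BMP2 is thus the ligand of this set whose ratio is a measured value and not a bound. OR1 and OR2 differed in BMP2 by less than the technical SD (log2 ratio of OR2 to OR1 0.11 ± 0.20), but with spike-in scaling the ratio of OR2 to OR1 was 1.72. BMP4 (NM_001202, chr14:54417318-54417377 on hg19) gave an intensity of 6.75 in H1975, which did not clear background, against 43.7 in OR1 and 76.7 in OR2. BMP4 was at least 3.96-fold higher in OR1 and at least 5.94-fold higher in OR2. Unlike INHBA and BMP7, it was the higher of the resistant lines in OR2, with a log2 ratio of OR2 to OR1 of 0.58 ± 0.23 (technical SD). BMP4, BMP7 and INHBA passed the background filter through OR1 and OR2 alone, so they could only differ upward. With normexp background correction, which adds an offset of 50 to every intensity, BMP4 was at least 1.53-fold higher in OR1 and at least 1.82-fold in OR2, and BMP7 at least 2.73-fold and at least 1.43-fold, so BMP4 in both lines and BMP7 in OR2 were no longer past the ratio.

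**Figure D2:**
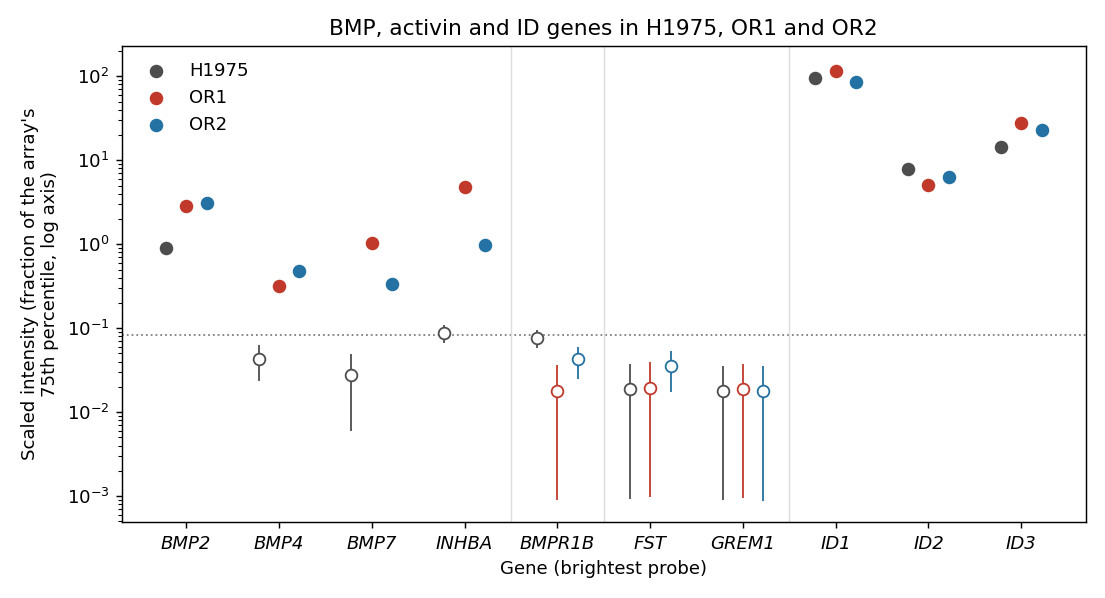
Scaled intensity (fraction of the array's 75th percentile, log axis) of the brightest probe of each of the 10 genes in H1975, OR1 and OR2. Filled points are well above background, open points are not, bars are the scanner software's error (hidden behind the filled points, and cut at the lower end where the error reaches the value), and the dotted line is the highest of the 3 arrays' lowest intensities well above background. Levels of different genes come from different probes and cannot be set against each other. BMP4, BMP7 and INHBA are open in H1975 and filled in OR1 and OR2, while ID1, ID2 and ID3 are filled in all 3 lines.

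The ID genes were well above background in all 3 lines. ID1 (NM_002165, chr20:30194158-30194217 on hg19) gave intensities of 14908 for H1975, 15957 for OR1 and 13950 for OR2. ID1 thus had a ratio of 1.22 for OR1 (log2 ratio 0.29 ± 0.20, technical SD) and 0.911 in OR2 (-0.13 ± 0.20), and with the arrays scaled on 7 spike-in probes the value in OR1 turned to 0.808. ID3 (NM_002167, chr1:23885666-23885725 on hg19) had 2239, 3835 and 3757. ID3 had the highest ratios of the ID genes, 1.95 in OR1 (log2 ratio 0.97 ± 0.20) and 1.63 in OR2 (0.71 ± 0.20). The value in OR1 was just below the ratio of 2, and it was 2.02 with the 75th percentile taken over detected probes and 1.29 with spike-in scaling.

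ID2 (NM_002166) was read by 2 probes that gave like ratios. The probe at chr2:8822642-8823030 on hg19, an interval longer than the probe itself, gave 1226 for H1975, 705 for OR1 and 1010 for OR2. This corresponds to a ratio of 0.656 for OR1 (log2 ratio -0.61 ± 0.20, technical SD) and 0.802 for OR2 (-0.32 ± 0.20). The probe at chr2:8824282-8824341 had 527, 326 and 445, with ratios of 0.706 and 0.823. With spike-in scaling ID2 in OR1 was at 0.434, past the ratio of 0.5. The ID genes therefore had ratios on either side of 1, with ID3 above it and ID2 below it in both lines. The log2 ratios of OR2 to OR1 were -0.42 for ID1, 0.29 for ID2 and -0.26 for ID3, and the technical SD was 0.20 for each. With spike-in scaling the ratios of OR2 to OR1 were 1.19 for ID1, 1.95 for ID2 and 1.33 for ID3, so the direction turned for ID1 and ID3.

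**Figure D3:**
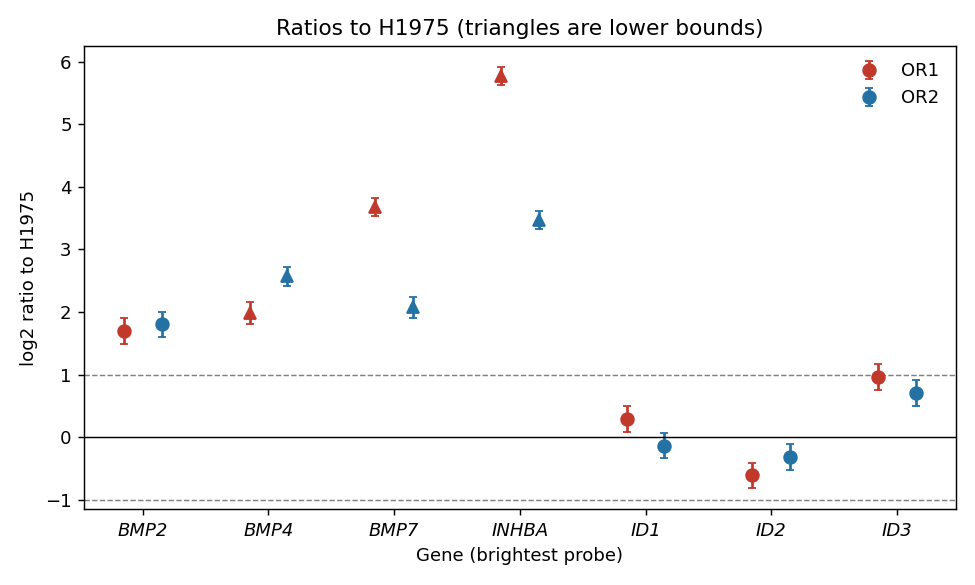
Ratio to H1975 on the log2 scale, in OR1 and OR2, of the 7 genes that cleared background on at least 1 array. Circles are measured ratios, triangles are lower bounds, bars are the technical SD (for a bound, of the resistant line alone), and dashed lines mark ratios of 2 and 0.5. BMP2, BMP4, BMP7 and INHBA lie above the upper line in both lines, from 1.69 for BMP2 to 5.77 for INHBA in OR1. ID1, ID2 and ID3 lie between the lines, though ID2 in OR1 falls to 0.434 and ID1 in OR1 to 0.808 as ratios with spike-in scaling.

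BMPR1B, FST and GREM1 were not well above background in H1975, OR1 or OR2, and no ratio was computed for them. The BMPR1B probe gave intensities of 12.0 for H1975, 2.48 for OR1 and 6.92 for OR2. FST had 2.95, 2.70 and 5.78. The brighter of the 2 GREM1 probes had 2.82, 2.59 and 2.86, and the other had 2.60, 2.39 and 2.60. A difference in these receptor and antagonist genes was not detectable on these arrays.

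As a description, the 7 members with a ratio had log2 ratios with a median of 1.69 for OR1 and 1.80 for OR2, which are the values of BMP2, against 0.04 over 21863 genes in OR1 and -0.06 over 21685 in OR2. BMP4, BMP7 and INHBA passed the background filter through OR1 and OR2 alone, so they enter the median as bounds that could only lie upward. Scaling on the spike-in probes moved the median of all genes by -0.60 in OR1, and the other scalings moved it by at most 0.19 in size in either line. BMP2 kept a ratio of 2.14 in OR1 with spike-in scaling, INHBA one of at least 36.1, BMP7 of at least 8.48 and BMP4 of at least 2.62.

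**Figure D4:**
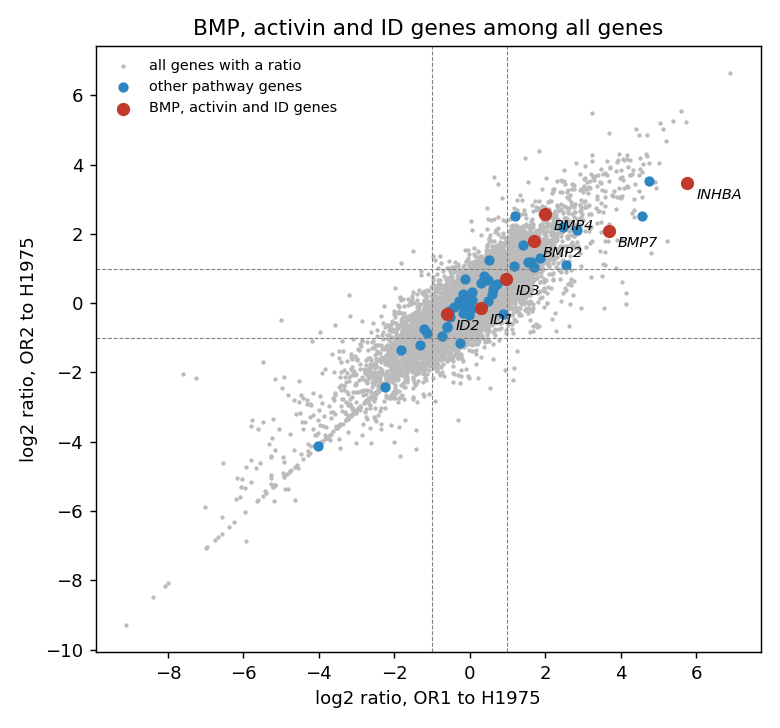
Log2 ratio to H1975 in OR1 (horizontal axis) and in OR2 (vertical axis) of all genes with a ratio in both lines, with the other pathway genes and the BMP, activin and ID genes drawn over them. Both axes share the H1975 array, so their positions on the axes are not independent, and bounds are drawn at their value. Dashed lines mark ratios of 2 and 0.5. INHBA lies at 5.77 and 3.47, near the upper end of OR1, and BMP2, BMP4 and BMP7 lie in the upper right field.

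The rest of the pathway was read from a list of 83 genes, of which 81 were on the array and 53 cleared background on at least 1 array. Of the 53, 12 had a ratio of at least 2 in both lines, where 5.09% of all genes did, and 4 had one of at most 0.5 in both, where 6.32% did. The list was chosen with earlier results of these data known, so these counts are a description only. GDF1, LEFTY1 and CHRDL2 were not well above background in H1975 and could only rise. HEY1 was well above background in H1975 alone and could only fall. Single lines added TCF4 in OR1 and GDF15 in OR2 upward, and INHA and FSTL3 in OR1 and ID4 in OR2 downward. Over the list the log2 ratios had a median of 0.07 in both lines, close to that of all genes. The 12 were ligands, antagonists, SMADs and targets, with the pseudoreceptor BAMBI as the single receptor gene.

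Among 26 other ligands, 12 cleared background on at least 1 array, and 3 rose in both lines. BMP5, a ligand of the BMP7 subgroup, gave 29.4 for H1975, 612 for OR1 and 173 for OR2. BMP5 thus had a ratio of 23.7 for OR1 (log2 ratio 4.57 ± 0.25, technical SD) and 5.74 in OR2 (2.52 ± 0.25), so BMP5, like INHBA and BMP7, was higher in OR1 than in OR2. GDF1, a partner of nodal, was at least 7.19-fold and at least 4.31-fold higher, and human GDF1 shares a transcript with CERS1. LEFTY1, an inhibitor of nodal signaling, was at least 2.68-fold and at least 3.22-fold higher. GDF15, a stress-induced member of the superfamily, had ratios of 1.42 and 2.39. INHA, the α subunit of inhibin that pairs with the product of INHBA, had ratios of 0.435 and 0.598. GDF15 and INHA are named here after their values were seen, as are FSTL3 and ID4.

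Among 18 secreted antagonists and modulators on the array, 10 cleared background on at least 1 array, and 4 rose in both lines while none fell in both. NOG (noggin), which binds BMP2 and BMP4, gave 314 for H1975, 805 for OR1 and 740 for OR2. Its ratios were 2.92 and 2.29. CHRD (chordin), another BMP trap, had ratios of 2.29 and 5.73, and its relative CHRDL2 was at least 5.86-fold and at least 2.15-fold higher. FSTL1, a follistatin-like glycoprotein, had ratios of 3.64 and 2.45. FSTL3, which binds activin as follistatin does, had ratios of 0.456 and 0.550. The antagonists that rose were thus others than FST and GREM1, which were not well above background.

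Among the 15 listed receptors and co-receptors on the array, 11 cleared background on at least 1 array, and 1 rose in both lines. It was BAMBI, a pseudoreceptor that lacks a kinase domain and dampens signaling, with intensities of 1281 for H1975, 3635 for OR1 and 2688 for OR2. BAMBI had ratios of 3.24 and 2.04, the latter within the technical SD of the ratio of 2. Among the other pathway genes past the ratio in both lines, this also held for CHRD in OR1. It held for NOG, CHRDL2 and SMAD9 in OR2 and for SMAD6 in both lines. The type I receptor BMPR1A had ratios of 1.04 and 1.26. The type II receptors BMPR2, at 0.915 and 1.61, and ACVR2A, at 1.22 and 1.501, were not past the ratio either. TGFBR3 was not on this list, and the study reports it as higher in OR1 and OR2.

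All 10 SMADs and SMAD ubiquitin ligases were well above background in each line, with 2 past the ratio upward and 2 downward in both lines. Of the SMADs that carry BMP signals, SMAD9 had ratios of 3.09 and 2.28, SMAD1 of 1.54 and 1.33, and SMAD5 of 0.694 and 0.763. The inhibitory SMADs went apart. SMAD6, which acts mainly on the BMP branch, had ratios of 2.25 and 2.10, and SMAD7, which acts on both branches, of 0.404 and 0.430. SMURF1, a ubiquitin ligase for SMAD1 and SMAD5, had ratios of 0.282 and 0.394.

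Of 12 other target genes, which include SMAD6, SMAD7 and BAMBI again, 10 cleared background on at least 1 array, with 4 up and 3 down in both lines. ATOH8, a basic helix-loop-helix factor, gave 20.2 for H1975, 477 for OR1 and 241 for OR2. ATOH8 thus had a ratio of 27.0 for OR1 (log2 ratio 4.75 ± 0.31, technical SD) and 11.6 in OR2 (3.54 ± 0.31). DLX2, a homeobox factor, had ratios of 5.51 and 4.62, and DLX3 of the same family went the other way, with 0.213 and 0.188. HEY1, a repressor also known as a Notch target, had an intensity of 212 in H1975 and did not clear background in OR1, at 4.43, or in OR2, at 7.72, for ratios of at most 0.0614 and at most 0.0580. ID4, the remaining ID gene, had ratios of 0.841 and 0.455. The calls of ATOH8, CHRD, CHRDL2 and SMAD9 each rested on the brighter of a pair of probes. The dimmer CHRD and SMAD9 probes gave at least 1.14-fold and at least 1.41-fold in OR1 and no ratio in OR2, and those of ATOH8 and CHRDL2 did not clear background in any line. Targets of the pathway therefore had ratios on both sides of 1, as the ID genes did.

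The basic helix-loop-helix partners of the ID proteins were read as well. TCF3 had ratios of 0.880 and 0.997, and TCF12 of 1.64 and 1.46. TCF4 gave 2.66 for H1975, 81.1 for OR1 and 2.76 for OR2, so it was at least 7.36-fold higher in OR1 and not well above background in the other lines. Of the partners, TCF4 is therefore the one whose call differed between the resistant lines. With normexp background correction, 9 of the 16 genes that rose in both lines, BMP4 and BMP7 among them, were no longer past the ratio in both. The others were GDF1, LEFTY1, CHRD, CHRDL2, SMAD9, SMAD6 and DLX2, and SMAD7 and SMURF1 were lost among the 4 that fell.

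**Figure D5:**
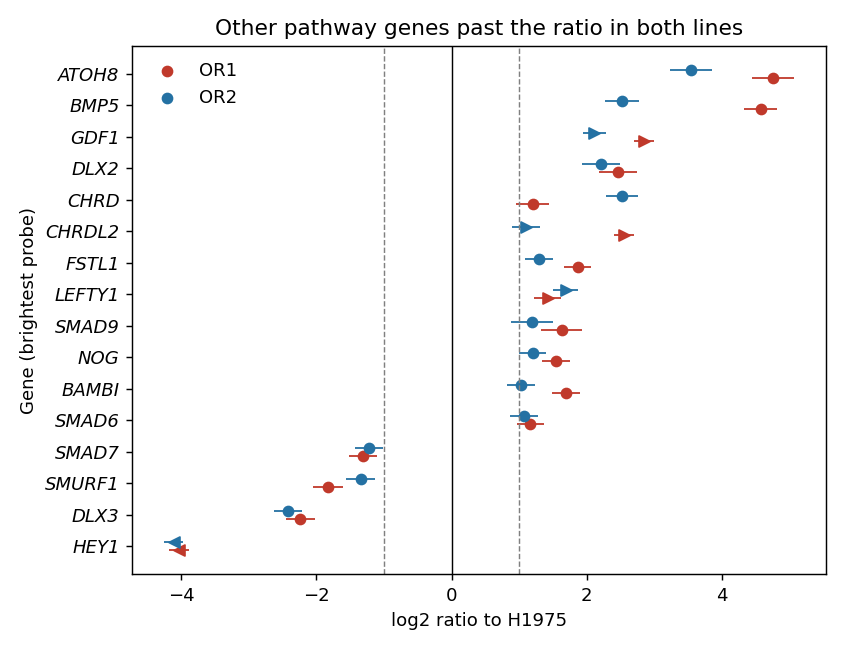
Ratio to H1975 on the log2 scale in OR1 and OR2 of the 16 other pathway genes past the ratio in both lines, by the brightest probe. Circles are measured ratios, triangles are bounds and point away from 0, bars are the technical SD, and dashed lines mark ratios of 2 and 0.5. ATOH8 has the highest values, with log2 ratios of 4.75 and 3.54, and HEY1 the lowest, while BAMBI and SMAD6 in OR2 lie at the upper line.

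The 4 rising ligands lie on 3 chromosomes, and their neighborhoods differed. Among the 20 genes with a ratio nearest to BMP2, out to 2.59 Mb, the median log2 ratio was 0.78 in OR1 and 0.60 in OR2, and 6 and 7 of them had a ratio of at least 2. The part of this neighborhood in the BMP2 result was not tested. The 20 genes nearest to INHBA had medians of -0.30 and -0.01, those nearest to BMP4 -0.05 and -0.06, and those nearest to BMP7 0.21 and -0.05. None of these medians reached that of the BMP2 neighborhood. ID1, also on chromosome 20, had neighbors with medians of 0.38 and 0.12, likewise lower.

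By distance in the log2 ratios of OR1 and OR2, over 18588 genes that all 3 arrays detected, the genes most like BMP2 were CLIC3, FCHO1 and SLC5A3, at distances of up to 0.0457. Those most like ID2 were TRPC2, IL9R and CALHM2, at distances of up to 0.0143. This likeness rests on 3 arrays. The distances were below the median technical SD of a log2 ratio, 0.20, so the order among near genes was not resolved.

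Markers of epithelial and other cell types were read as well. H1975, OR1 and OR2 are cultured lines, so these genes are read as expression of the cancer cells. In pooled RNA of a line, a change in a share of its cells and a change in all of them cannot be told apart. The summed scaled intensity of 9 epithelial genes was 2486 for H1975, 1073 for OR1 and 1072 for OR2. Bright probes weigh most in this sum, with KRT19 at 952 and KRT7 at 835 in H1975. EPCAM, KRT19, KRT7 and CDH1 were past the ratio of 0.5 in both resistant lines, with EPCAM at 0.0370 and 0.0725. KRT7 was at 0.164 and 0.170, and CDH1 at 0.0205 and 0.0800. KRT19, at 0.463 and 0.492, was within the technical SD of the ratio of 0.5 in both lines. KRT8, at 1.12 and 0.964, and KRT18, at 0.884 and 0.806, were not past that ratio. Keratin RNA of epithelial cells was thus present in all 3 lines. NKX2-1, a lung lineage factor, had ratios of 0.252 and 1.36, and SFTPB did not clear background on the 3 arrays. NAPSA had ratios of 0.770 and 1.57, so NKX2-1 and NAPSA were not lower in OR2. The part of these epithelial changes in the ligand results was not tested.

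Fibroblasts are a known source of INHBA and BMP4, so genes known as fibroblast markers were read in these cancer lines. The summed scaled intensity of 8 fibroblast genes was 4.396 for H1975, 5.00 for OR1 and 0.681 for OR2. COL3A1, DCN, PDGFRA and THY1 were not well above background in any line. COL1A1 had ratios of 1.45 and 0.183, and COL1A2 had 0.162 in OR1 and at most 0.0615 in OR2. LUM was at least 5.43-fold higher in OR1 and below the background limit in OR2. FAP cleared background in H1975 alone, with ratios of at most 0.773 and at most 0.730. The part of these markers in the ligand results was not tested. The 3 endothelial genes summed to between 0.565 and 0.709, and 1 of them was past the ratio of 2 in OR1. It was PECAM1, with ratios of 2.10 and 1.19, and its next probe gave at least 2.75-fold and at least 1.98-fold. CDH5 had ratios of 0.664 and 1.21, and VWF of 0.776 and 0.927. The scaled intensity of the leukocyte gene PTPRC was between 0.127 and 0.150.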

How the data were processed

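The authors hybridized RNA of H1975, OR1 and OR2 to 1 Agilent human 8 × 60 K array each, all 3 on the same slide, and deposited the scanner output of Feature Extraction (version 9.5.1.1 per the labels, 10.7.1.1 per the file headers). Its intensity per spot is corrected for background within the array and not scaled between arrays. The authors also deposited a table of normalized intensities, whose normalization is not given in the sources used here and which served as an alternative.

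Of 62976 spots, control spots and 45 to 61 outlier spots per array were dropped. Repeated spots were averaged in log2 intensity, which left 58200 probes, and each array's 75th percentile was subtracted. A probe was well above background where a share of over 0.5 of its spots was. The brightest probe stood for a gene, and all probes of the 10 genes are given. Ratios of 1 array to 1 array were compared with 2 and 0.5, without a test. The calling was tried on simulated data, with changes placed only in genes well above background in H1975. The simulation thus did not represent the rises of BMP4, BMP7 and INHBA from below background. The 10 genes, the pathway and marker lists and the alternatives were chosen with earlier results of these data known. Named are all 10 genes, pathway genes past the ratio in both lines, TCF3, TCF4, TCF12, SMAD1, SMAD5, SMAD9, BMPR1A, BMPR2 and ACVR2A, and the 3 genes nearest in ratio to BMP2 and to ID2, which had the highest and the lowest mean ratio of the 4 well above background on all 3 arrays. The alternatives were quantile, median, spike-in, detected-probe or no scaling, normexp with an offset of 50, the authors' table, other background, outlier and saturation filters, the median over probes, and ratios of 4 or 1.5. Python 3.11.15, numpy 2.4.6, pandas 2.3.3, matplotlib 3.10.9, R 4.3.3 and limma 3.58.1 were used.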

Additional observations from a re-analysis of the deposited data

Results flagged for a closer look

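ID1, BMPR2, KRT8, NKX2-1 and COL1A1 had ratios to H1975 on opposite sides of 1 in OR1 and OR2. With 1 array per line, how far OR1 and OR2 differ was not tested. ID1 had 1.22 in OR1 and 0.911 in OR2, and with quantile normalization or the authors' table the value in OR2 was 1.07. BMPR2 had 0.915 in OR1 and 1.61 in OR2. KRT8 had 1.12 and 0.964, within the technical SD of 1 in both lines. NKX2-1 had 0.252 in OR1 and 1.36 in OR2, and COL1A1 had 1.45 and 0.183.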

How the results depend on the processing

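Counts were recomputed under 14 alternatives, and ratios under the 12 of these that change more than the ratio required, or under 11 where a gene was not above background on all 3 arrays. Of 243 recomputed ratios of the 7 genes with a ratio, 200 stayed within the technical SD, 43 moved beyond it and none past the ratio changed direction. The 4 members up in both lines became 1 (BMP2), in OR1, OR2 and both, when all 3 arrays had to be well above background, 2 in OR1 and in both with a ratio of 4, and 2 in OR2 and in both with normexp correction. The 0 members down in OR1 became 1, ID2, with spike-in scaling and with a ratio of 1.5. Of the other pathway genes, the 12 up in both became 5 with normexp and 4 with a ratio of 4, and the 4 down became 2 with normexp, 2 with a ratio of 4 and 9 with a ratio of 1.5. Over all genes, the 1141 up in both became 597 with spike-in scaling, 461 with normexp, 265 with a ratio of 4 and 2573 with 1.5, and the 1417 down became 705 with normexp, 873 when all 3 arrays had to be well above background, 422 with a ratio of 4 and 2957 with 1.5. Fewer genes pass a stricter filter or ratio by construction, and the offset of 50 draws the ratios of dim genes toward 1. The cause of the spike-in shift in OR1 was not tested. With spike-in scaling LEFTY1, NOG, CHRD and SMAD6 were no longer past the ratio in both lines, and with the median over probes BMP7, CHRD and CHRDL2 were not. SMAD6 was also lost with no scaling. No spot was saturated, so leaving saturated spots out changed nothing. No replicate could be left out. No paired analysis was possible because each line has 1 array.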
